A study of Kryptolebias marmoratus with 5 samples.

Results

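The *balltail* (*btl*) mutant of the mangrove killifish *Kryptolebias marmoratus* was compared with its own normal siblings across all measured genes. 1 library of *btl* was set against 1 library of *btl*-sibling, so 2 of the 5 libraries of the series carry the comparison. Genes were kept where their mean over the 5 libraries was at least 2 CPM (counts scaled to 1000000 reads a library), which left 15362 of the 22090 genes listed.

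The *btl* line, R228, is a recessive mutant recovered after ENU mutagenesis of the self-fertilizing strain *Hon9*, which is the WT of the series. The *btl* library held (-/-) embryos sorted by their phenotype, and the *btl*-sibling library held phenotypically normal embryos of the same line, which can include carriers. WT and *stl*-sibling, the normal siblings of the *shorttail* (*stl*) line, served as further normal references. The *stl* library held (-/-) mutant embryos of that line, which also came from ENU mutagenesis. It entered the filter and the scaling and is shown beside the others. The labels describe pools of 20 to 25 whole embryos per library, with all embryonic cells, kept at 26 °C and taken at St.17 with some at St.16 and St.18. Strings of 5 values without names are in the order WT, *stl*-sibling, *stl*, *btl*-sibling, *btl*. Because each group is 1 pool, no difference has a replicate check. Each interval given below holds at 95%, was taken by the exact method of Clopper and Pearson from the reads of both libraries, and covers counting error only. In pooled whole embryos, fewer cells of a type and less RNA per cell cannot be told apart.

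The mutated gene of *btl* is *msgn1*, which encodes mesogenin 1, a basic helix-loop-helix transcription factor of the presomitic mesoderm. In vertebrate embryos the tail bud holds progenitors of the notochord, the neural tube and the paraxial mesoderm, and mesogenin 1 acts where progenitors leave the bud and enter the paraxial mesoderm, which later forms somites, skeletal muscle and connective tissue. The T-box factor *tbxta* and the homeobox factor *noto* mark the tail bud and notochord side of this choice, and *tbx6* marks the paraxial side.

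The estimated counts deposited by the authors summed to 9147625 in *btl* and 12220249 in *btl*-sibling, with the other libraries between 11487661 and 11849426. After rounding of the estimated counts, at least 1 read was assigned to 19723 genes in *btl* and to between 19961 and 19982 genes in the others. Markers of the expected tissues were present in each library. The summed level of the neuron list lay between 747 and 927 CPM and that of the blood list between 954 and 1254 CPM.

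*msgn1* itself (linkage group 19, 9032774 to 9034638 in ASM164957v2) was the second highest gene of the comparison. Its level was 258.5 CPM in *btl* and 12.4 in its sibling, beside 9.50 in WT, 7.31 in *stl*-sibling and 10.8 in *stl*. The other 4 libraries lay close together, and *btl* stood 20.9-fold above its sibling (17.8- to 24.7-fold, 2163 against 159 reads). The lesion of *btl* is a missense change, so the level of this mRNA says nothing of the protein and checks the label only in that *btl* stands apart at the mutated gene.

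With a threshold of 2-fold, 503 of the 15362 genes (3.27%) were lower in *btl* than in its sibling, and 665 (4.33%) were higher. For scale, the 3 normal libraries differed from each other at the same threshold in 263 genes (1.71%, *stl*-sibling against WT), 209 genes (1.36%, *btl*-sibling against WT) and 325 genes (2.12%, *btl*-sibling against *stl*-sibling). The lower genes were shared more often with the other references than the higher ones. Against each of the 3 normal libraries *btl* was at least 2-fold lower in 253 genes (1.65%) and at least 2-fold higher in 135 (0.879%), which is 50.3% of the lower genes and 20.3% of the higher genes. Among the 665 higher genes, 40 were at least 2-fold lower in *btl*-sibling than in the mean of WT and *stl*-sibling, and among the 503 lower genes 14 were at least 2-fold higher in *btl*-sibling than in that mean.

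The split between lower and higher depended on the scaling. The values above use TMM factors, and 56.9% of the changed genes were higher. With library size alone there were 847 lower and 321 higher genes (27.5% higher), and with Salmon's TPM there were 2127 lower and 64 higher genes (2.92% higher). These scalings moved the median log2 fold change of all genes by -0.19 and -0.53. Signs near 0 therefore depend on the scaling, and values below use TMM unless another scaling is named. Among others, the medians of the presomitic mesoderm, muscle energy, endoderm and retinoic acid lists fell below 0 with both scalings. The median of the blood list did so with TPM.

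Short genes tended to be higher in *btl* and long genes lower. Across the 15362 genes, the Spearman rank correlation of the log2 fold change with coding sequence length was -0.49 in *btl* against its sibling, given as a description, since genes are not replicates. In the decile of genes with the shortest coding sequences (114 to 594 nt), the median log2 fold change was 0.62 and 374 of 1536 genes (24.3%) were at least 2-fold higher. In the decile with the longest (3842 to 88038 nt), the median was -0.35 and 137 of 1537 (8.91%) were at least 2-fold lower. The shortest decile held 56.2% of all higher genes.

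**Figure D1:**
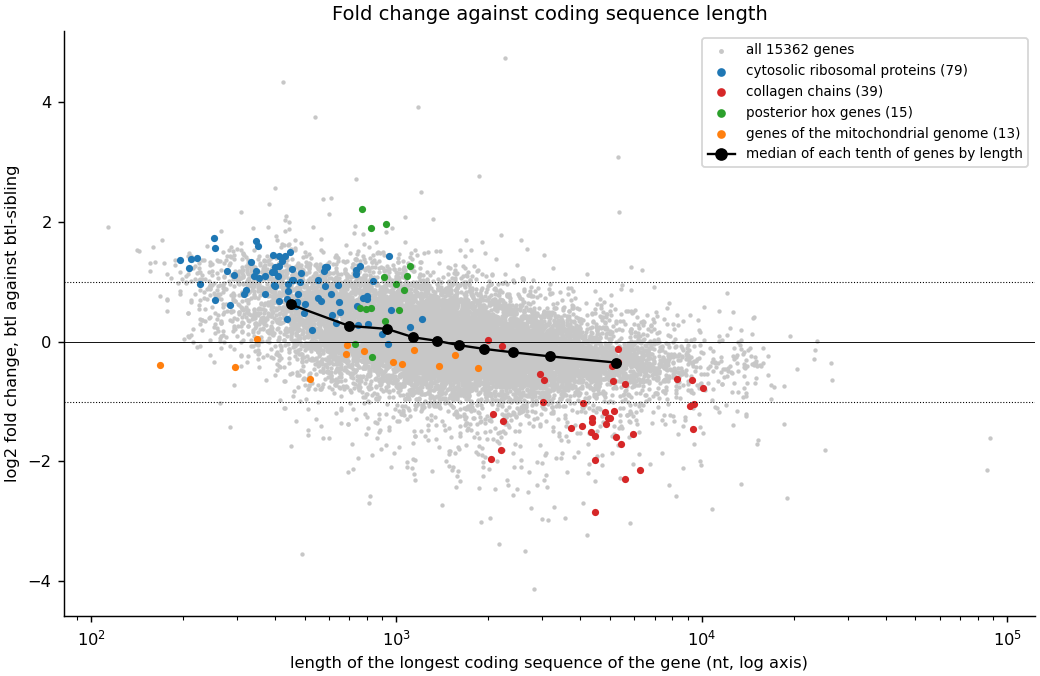
Log2 fold change of *btl* against *btl*-sibling (y axis) for each of the 15362 genes by the length of its longest coding sequence (x axis, nt, log scale), with dotted lines at 2-fold and black points for the median of each decile of genes by length. The medians run from 0.62 in the shortest decile to -0.35 in the longest. Ribosomal protein genes sit at the short, high end, collagen genes at the long, low end and below the medians, and the genes of the mitochondrial genome lie between -0.63 and 0.04 in spite of their short coding sequences.

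Pairs of normal libraries also differed along length. The same rank correlation was -0.34 for *btl* against WT and -0.40 against *stl*-sibling, but it was also 0.42 for *btl*-sibling against WT and -0.29 for WT against *stl*-sibling, both pairs of normal libraries. The remaining normal pair, *btl*-sibling against *stl*-sibling, gave 0.15. Salmon's correction between coding length and effective length, as the median over long coding sequences, was 133 nt in *btl* and 136 nt in *btl*-sibling. The *btl* value was the lowest of the libraries. The part of these library values in the trend was not tested. The 13 genes of the mitochondrial genome lay outside the trend. The shortest of them, *ATP8* and *ND4L*, had log2 fold changes of -0.39 and -0.42, and the 13 ranged from -0.63 (*ND6*) to 0.04 (*ND3*).

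Therefore each value was also computed after subtracting the median of its bin, with genes ordered by coding length into 20 bins. 486 genes (3.16%) then passed 2-fold on the lower side and 255 (1.66%) on the higher. Of the 503 lower genes 367 passed in both forms, which is 73.0%, and of the 665 higher genes 204 did, which is 30.7%. Requiring the 2-fold difference against all 3 normal libraries and with the length trend removed left 227 lower and 67 higher genes, from which the extremes below were taken.

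**Figure D2:**
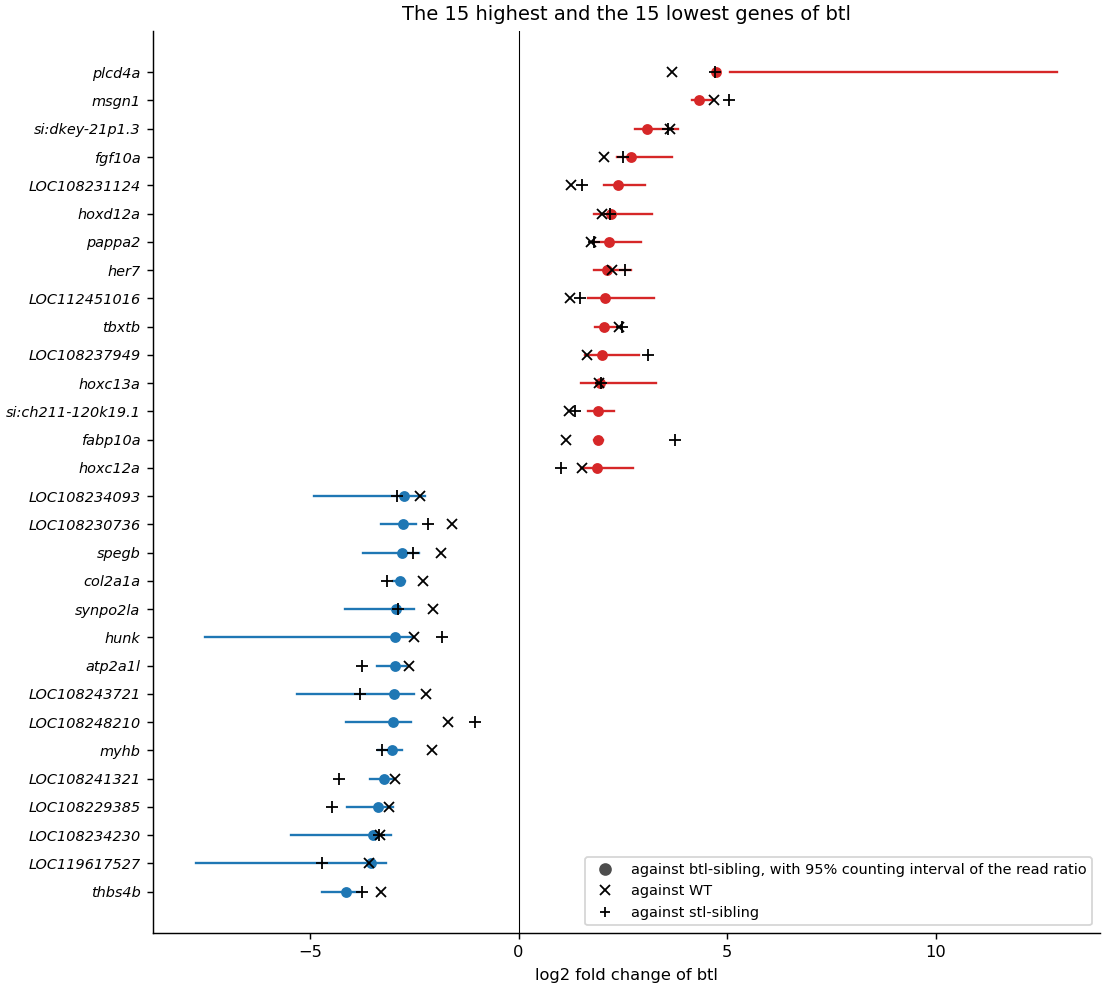
The 15 highest and 15 lowest genes among those at least 2-fold changed in *btl* against its sibling, against WT, against *stl*-sibling and with the length trend removed. Dots give the log2 fold change against *btl*-sibling on the log2(CPM + 0.5) scale, lines the 95% counting interval of the read ratio, crosses and plus signs the log2 fold change against WT and *stl*-sibling. The dot of *plcd4a* lies left of its interval because the added 0.5 CPM shrinks the fold change of a gene with 1 read in the sibling. Values run from -4.13 (*thbs4b*) to 4.73 (*plcd4a*).

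Of the 15 lowest genes, 12 belong to fast skeletal muscle or the extracellular matrix. The lowest was *thbs4b* (linkage group 14, 12537012 to 12553507), which encodes a thrombospondin of the matrix where muscle attaches to tendon in zebrafish. It had 5.62 CPM in *btl* and 106.6 in its sibling, beside 59.2 in WT, 82.0 in *stl*-sibling and 89.2 in *stl*, a log2 fold change of -4.13 and 19.0-fold below the sibling (14.2- to 25.9-fold). The *stl* mutant lay within the range of the normal libraries for this gene and *btl* alone was low. Its relative *thbs4a* was at 1.94 CPM in the sibling and 2.39 in *btl*, on 25 and 20 reads.

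Myosin heavy chains of fast muscle, the motor of the thick filament, took 5 of the 15 places. They lie in 2 groups, 5 genes on linkage group 12 between 7901051 and 7960015 and *myhb* with its neighbour LOC108247384 on linkage group 4 between 12733729 and 12766932. Salmon divides reads among copies of near-identical sequence, so values of single copies are uncertain and the sums are given. The 5 genes on linkage group 12 together had 19.2 CPM in *btl* and 202.3 in its sibling, beside 165.3 in WT, 426.5 in *stl*-sibling and 287.3 in *stl*, 10.5-fold lower than the sibling (8.96- to 12.4-fold). *myhb* and LOC108247384 together had 134.5, 320.5, 123.7, 254.1 and 34.8 CPM, 7.31-fold lower (6.48- to 8.27-fold). Both groups were lowest in *btl*, while the normal libraries themselves differed by more than 2-fold. Product names were at hand only for genes in the authors' comparison tables, so a copy that did not change could carry no such name and would be missed here.

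The remaining muscle genes among the 15 were *atp2a1l*, a calcium pump of the sarcoplasmic reticulum, at 58.3, 125.9, 62.5, 73.4 and 8.97 CPM, *synpo2la*, an actin-binding protein of the Z disc, at 8.46, 15.5, 11.2, 16.2 and 1.67 CPM, and *spegb*, a striated muscle kinase, at 10.4, 16.9, 7.76, 20.4 and 2.51 CPM. All were lowest in *btl*. The matrix genes were *col2a1a*, the fibrillar collagen of the notochord sheath and of cartilage, LOC108234093, annotated as collagen alpha-1(XIX), and LOC108234230, annotated as matrilin-2, a matrix adaptor protein. Matrilin-2 had between 116 and 187 reads in the other 4 libraries and 7 in *btl*. *col2a1a* had 47.7 CPM in *btl* and 346 in its sibling, beside 235.5 in WT, 426.4 in *stl*-sibling and 48.9 in *stl*, so that it was similarly low in both mutants. LOC108248210 and LOC108230736, annotated as the mucins 5AC and 17, and *hunk*, a protein kinase gene, completed the list. *hunk* had 67 reads in the sibling and 2 in *btl*, a 14.5-fold difference with *btl* set to 3 reads (5.80- to 184-fold for the ratio itself).

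Of the 15 highest genes, 6 encode transcription factors (*msgn1*, *tbxtb*, *her7* and 3 *hox* genes) and 1 a growth factor (*fgf10a*). Of the 15, 4 (*plcd4a*, si:dkey-21p1.3, *hoxc13a* and LOC108237949) had a mean below 2 CPM over the other 4 libraries and were kept only through their level in *btl*, as were 32 of the 665 higher genes. *plcd4a* (linkage group 23, 11677133 to 11717016), a phospholipase C that cleaves the membrane lipid PIP2, was at 124 reads in *btl* and 1 in its sibling, beside 8 in WT, 1 in *stl*-sibling and 1 in *stl*. With the sibling set to 3 reads this is 63.6-fold (33.6- to 7592-fold for the ratio itself). *msgn1* followed, and then si:dkey-21p1.3, whose product name is collagen alpha-1(I) chain, with 37 reads in *btl*-sibling and 235 in *btl* (9.77-fold, 6.88- to 14.2-fold). It was the only collagen-annotated gene among the 15 highest and ran opposite to the collagen list described below.

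*fgf10a*, a fibroblast growth factor of limb and fin buds, had 15.4 CPM in *btl* and 1.94 in its sibling, beside 3.37 in WT, 2.30 in *stl*-sibling and 2.62 in *stl* (7.94-fold, 5.14- to 12.7-fold). *tbxtb*, a T-box factor of the tail bud and notochord, had 10.3, 9.69, 9.36, 13.2 and 56.3 CPM (4.26-fold, 3.57- to 5.11-fold). *her7*, a cyclic repressor of the segmentation clock in zebrafish, had 4.32, 3.37, 3.46, 4.66 and 22.1 CPM (4.74-fold, 3.53- to 6.46-fold). In all of these the other 4 libraries lay within a narrow band and *btl* alone was high. *hoxd12a*, *hoxc13a* and *hoxc12a* are described with the other *hox* genes.

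The rest of the highest 15 had other annotations. *pappa2*, a protease of IGF-binding proteins, was at 2.72 CPM in the sibling and 13.9 in *btl*, LOC108231124, annotated as glutathione peroxidase 1-like, at 3.65 and 21, and *fabp10a*, the basic fatty acid-binding protein of liver, at 72.1 and 272.3. *fabp10a* also differed among the normal libraries, with 122.9 CPM in WT and 20.0 in *stl*-sibling. LOC112451016, LOC108237949 and si:ch211-120k19.1 carry no product name in the sources used here and were at 7.70, 10.2 and 36.5 CPM in *btl*.

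**Figure D3:**
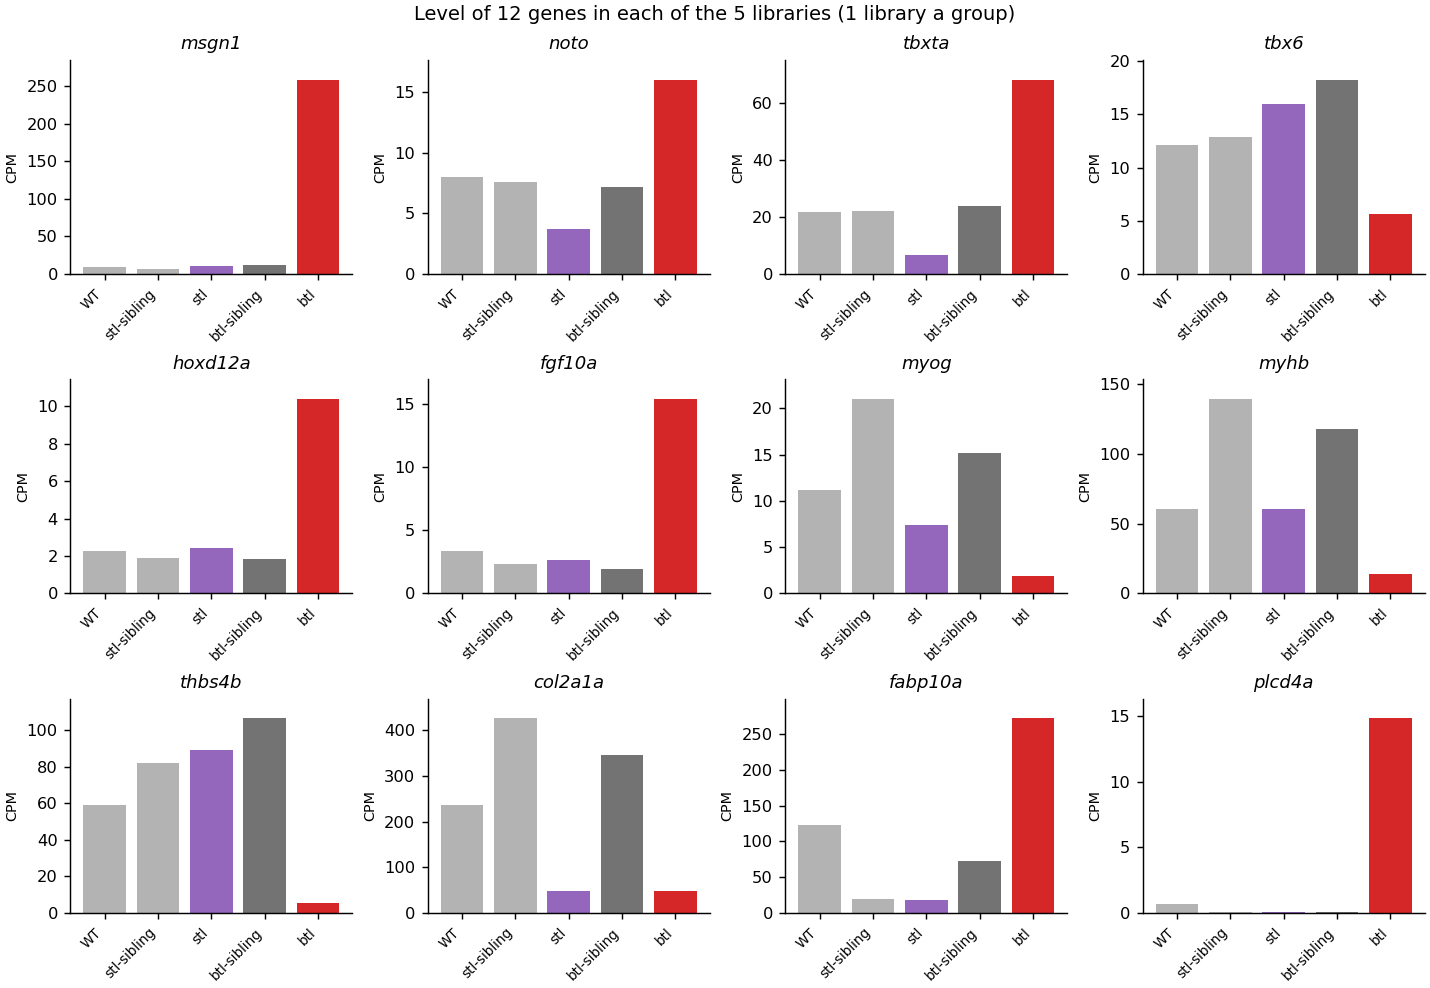
Level in CPM (y axis, starting at 0) of 12 genes in each of the 5 libraries, 1 bar a library, with the normal libraries in grey, *stl* in purple and *btl* in red. *msgn1*, *tbxta*, *hoxd12a*, *fgf10a* and *plcd4a* are highest in *btl*, *noto* reaches 16.0 CPM there, and *myog*, *myhb*, *thbs4b* and *tbx6* are lowest there, while *col2a1a* is low in both mutants.

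Genes of the tail mesoderm were then read by role, from gene lists matched by symbol. The counts of this and every later list against the sibling stand beside 3.27% of all genes lower and 4.33% higher. Counts with the length trend removed stand beside 3.16% of all genes lower and 1.66% higher. Counts against all 3 normal libraries stand beside 1.65% lower and 0.879% higher. In the list of tail bud progenitors, 4 of 20 genes were at least 2-fold higher and 0 lower, beside 4.33% and 3.27% of all genes. They were *tbxtb*, *tbxta*, *noto* and *ved*, of which *tbxtb* and *tbxta* stayed past 2-fold with the length trend removed (*noto* 0.87 and *ved* 0.77). *tbxta*, the fish Brachyury gene, had 68.4 CPM in *btl* and 24 in its sibling, beside 21.7 in WT, 22.1 in *stl*-sibling and 6.75 in *stl* (2.85-fold, 2.48- to 3.28-fold). *noto*, the homeobox gene that specifies notochord and is mutated in *stl*, had 8.03, 7.56, 3.71, 7.15 and 16.0 CPM (2.24-fold, 1.71- to 2.95-fold). The *btl* value was the highest and the *stl* value the lowest for both. Against WT, *noto* had a log2 fold change of 0.95 and so just missed the 2-fold line.

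The rest of the tail bud list was closer to its sibling. *ved*, a ventral homeobox repressor, had a log2 fold change of 1.01, *fgf3* 0.91 and *cdx4*, a homeobox activator of posterior *hox* genes, 0.88. *fgf8a*, a posterior FGF signal, was at 5.44 CPM in the sibling and 5.98 in *btl*, with an interval of the log2 ratio from -0.42 to 0.68. At the other end stood *tfap2c* (-0.85), *wnt11* (-0.68) and *fgf17* (-0.65). The median of the list was 0.19, and with library size alone or TPM it lay below 0 together with the median of all genes, staying 0.21 and 0.18 above it.

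The presomitic mesoderm list split in 2 directions, with 4 of 19 genes at least 2-fold higher (21.1%) and 2 lower (10.5%). With the length trend removed it had 3 higher and 3 lower, since *her12* was then at 0.62 and *meox1* at -1.17. The higher were *msgn1*, *her7*, *her12* and *her11*, the last 3 being hairy-related repressors of the segmentation clock. *her12* was at 22.1 CPM in the sibling and 59.9 in *btl* (2.70-fold, 2.33- to 3.14-fold), and *her11* at 2.41 and 6.81. The lower were *tbx6* and *tcf15*. *tbx6*, the T-box factor of maturing presomitic mesoderm, had 5.62 CPM in *btl* and 18.3 in its sibling, beside 12.1 in WT, 12.9 in *stl*-sibling and 16.0 in *stl* (3.25-fold lower, 2.37- to 4.55-fold). *tcf15*, a factor of the epithelial somite, had 5.13 CPM in the sibling and 1.79 in *btl*.

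Single genes of the forming somite that belong to no list, or were chosen after their values were seen, were also looked at. LOC108243329, annotated as mesp2-like after the segment border factor, had between 26 and 52 reads in the other 4 libraries and 2 in *btl*. *dmrt2a*, needed for somite symmetry in zebrafish, was at 15.9 CPM in the sibling and 3.35 in *btl*, and LOC108237019, annotated as a homologue of the homeobox gene unc-4, at 13.2 and 2.39. In the presomitic list *uncx*, another gene of that family, had a log2 fold change of -0.43, and *foxc1a* and *meox1* had -0.94 and -0.93 and did not reach 2-fold. *tbx16*, the T-box gene *spadetail* of migrating mesoderm progenitors, was at 47.1 CPM in *btl* and 29.6 in its sibling, beside 21.6 in WT, 20.0 in *stl*-sibling and 21.1 in *stl*. On the log2 scale *btl* stood 0.66 above the sibling and 1.11 above WT.

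**Figure D4:**
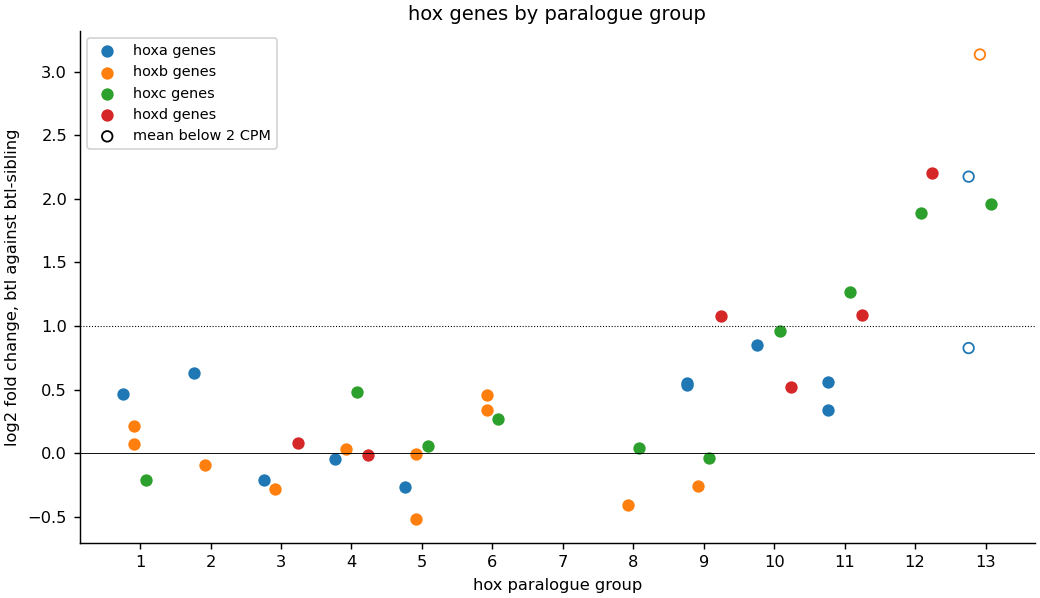
Log2 fold change of *btl* against *btl*-sibling (y axis) of 40 *hox* genes by paralogue group (x axis), coloured by cluster, with open circles for 3 genes below a mean of 2 CPM and a dotted line at 2-fold. Genes of groups 1 to 8 lie between -0.52 and 0.63, and the genes of groups 12 and 13 lie between 0.83 and 3.14.

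The *hox* genes, which give cells their position along the body axis, differed by paralogue group. The 22 genes of groups 1 to 8 had a median log2 fold change of 0.04 and ranged from -0.52 (*hoxb5b*) to 0.63 (*hoxa2b*), with 0 past 2-fold in either direction. The 5 genes of group 9 had a median of 0.54 and the 7 genes of groups 10 and 11 a median of 0.85. The 6 genes of groups 12 and 13, which mark the tail end, had a median of 2.07, and 5 of the 6 were at least 2-fold higher. Of these 6 genes, 3 were below the filter and *hoxc13a* passed it only through *btl*, so that the count is a description of few reads. Of the 15 posterior genes kept by the filter, 6 were at least 2-fold higher (40%, beside 4.33% of all genes) and 0 lower. Against all 3 normal libraries 4 were at least 2-fold higher.

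Reads per gene were few in groups 12 and 13, and *btl* had the most reads of the 5 libraries in each gene. *hoxd12a* had 87 reads in *btl* and 24 in its sibling, beside 26 in WT, 23 in *stl*-sibling and 29 in *stl* (5.58-fold, 3.51- to 9.16-fold). *hoxc13a* had 14, 14, 14, 15 and 50 reads (5.13-fold, 2.83- to 9.83-fold), and *hoxc12a* 38, 59, 50, 31 and 86 (4.27-fold, 2.80- to 6.66-fold). The other 4 libraries overlapped closely in each gene, *hoxc12a* being the most spread. Below the filter, *hoxa13a* had 13, 13, 13, 11 and 47 reads, *hoxb13a* 4, 8, 9, 2 and 44, and *hoxa13b* 5, 6, 4, 5 and 9. The posterior list kept a median of 0.77 with the length trend removed and was above 0 under every scaling tried.

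Skeletal muscle genes were low as a group but not throughout. Of the 172 genes in the muscle lists, 57 were at least 2-fold lower (33.1%, beside 3.27% of all genes) and 6 higher (3.49%, beside 4.33%). These lists were drawn up with earlier results on the same libraries known. In the list of myogenic regulators and fusion genes, 7 of 17 were lower and 0 higher, with a median log2 fold change of -0.62. Of the 7, 3 were at least 2-fold below all 3 normal libraries. *myog*, the factor that starts muscle differentiation, had 1.91 CPM in *btl* and 15.2 in its sibling, beside 11.1 in WT, 21 in *stl*-sibling and 7.42 in *stl* (7.93-fold lower, 4.76- to 14.1-fold). *myf5*, which acts earlier in myoblasts, had 12.4, 14.4, 10.04, 14.3 and 2.87 CPM (4.97-fold lower), and *cdh15*, the cadherin of myoblasts, 24, 39.2, 21.6, 32.2 and 5.02. *btl* was lowest for each, with no overlap with the other libraries. *prdm1a*, *jam3b* and *eya2*, the highest of the list, had log2 fold changes between -0.22 and 0.05.

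The contractile apparatus followed. In the Z disc, titin and M band list 15 of 29 genes were lower and 0 higher (median -1.17). Of the 15, 7 were at least 2-fold below all 3 normal libraries. The list was led by *actn3b*, the fast-fibre actinin, at 39.8 CPM in the sibling and 6.58 in *btl*. Next was *mybphb*, a myosin-binding protein, at 32.8 and 5.74 CPM, with *stl*-sibling at 11.3 and so within 2-fold of *btl*. In the thin filament and light chain list 7 of 28 were lower and 4 higher (median -0.56). *neb*, the nebulin ruler of the thin filament, was at 66.3 and 10.4 CPM, and *acta1b*, a skeletal actin, at 298.3 and 76.8. The 4 higher members were *tnnc1a*, *myl7*, *myl2b* and *tnnt2a*, at least 3 of which (*tnnc1a*, *myl7*, *tnnt2a*) are genes of the heart in zebrafish.

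*myl7*, the atrial and ventricular light chain of the embryonic fish heart, had 113.6 CPM in *btl* and 41.2 in its sibling, beside 55.3 in WT, 48.6 in *stl*-sibling and 37.7 in *stl* (2.76-fold, 2.48- to 3.07-fold). *tnnc1a*, cardiac troponin C, had 14.2, 10.3, 10.6, 8.08 and 26.3 CPM. The *btl* library was above all others for both. With the length trend removed *tnnc1a* was at 1.17 and alone among the 4 stayed past 2-fold (*myl7* 0.98, *myl2b* 0.78 and *tnnt2a* 0.77). The heart list had 2 of 14 genes higher and 0 lower, and 0 in either direction with the length trend removed, and its long genes stood close to the sibling, with *myh6*, the cardiac myosin heavy chain, at 38.6 CPM in the sibling and 40.9 in *btl* and *mybpc3*, cardiac myosin-binding protein C, at 23.9 and 30.1. Its median of 0.29 became 0.44 with the length trend removed, when *myh6* was at 0.46 and *mybpc3* at 0.61. With TPM the median turned to -0.23, which remained 0.32 above all genes.

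Genes of excitation and its coupling to contraction were lower in 13 of 28, with a median of -0.91. All 13 were also at least 2-fold below all 3 normal libraries. They included *cacng1a*, a calcium channel subunit, at 7.66 CPM in the sibling and 1.31 in *btl*, and *atp2a1*, the fast-fibre calcium pump, at 16.1 and 3.59. The neuromuscular synapse was part of it. *musk*, the kinase that organises the postsynaptic membrane, was at 1.91 CPM in *btl* and 9.17 in its sibling, beside 7.26 in WT, 9.53 in *stl*-sibling and 3.04 in *stl*. *chrna1* and *chrne*, subunits of the muscle acetylcholine receptor, were at 11.3 and 5.21 CPM in the sibling and 2.99 and 1.08 in *btl*. *scn4aa* (0.51) and *casq1b* (0.75) headed the other end of the list without reaching 2-fold.

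Few members of the muscle energy and myosin folding lists passed 2-fold. Whether all their members are particular to muscle was not checked, so the medians do not show that these muscle functions were spared. In the energy list 7 genes lay below 0, among them *ldha* (-0.74) and *aldoab* (-0.68), and 8 above. In the folding list 8 lay below 0, among them *smyd1b* (-0.59), and 6 above. In the muscle energy list 1 of 15 genes was lower, *ckmb*, a muscle creatine kinase, with 69.6 CPM in the sibling and 14.7 in *btl*, and the median was 0.16. In the myosin folding and small heat shock list 1 of 14 was lower and 2 were higher. *hsp90aa1.1*, the muscle form of Hsp90 that folds myosin in zebrafish, had 32.4 CPM in *btl* and 93.4 in its sibling, beside 86.9 in WT, 150.9 in *stl*-sibling and 77.9 in *stl* (2.88-fold lower, 2.52- to 3.30-fold). *hsp90aa1.2*, the stress-inducible form, had 234.4, 168.3, 534.2, 54.7 and 187.5 CPM. The sibling was the lowest of the 5 libraries there, so that *btl* was 3.43-fold above its sibling and had a log2 fold change of -0.32 against WT. *hspa8b*, an Hsp70 gene, showed the same arrangement, with 107.1 CPM in WT, 31.3 in *btl*-sibling and 88.3 in *btl*.

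Genes that anchor muscle to its matrix were lower in 12 of 39 with 0 higher and a median of -0.69. Of the 12, 8 were at least 2-fold below all 3 normal libraries. With the length trend removed 10 of the 39 were lower and the median was -0.43. After *thbs4b* came *cavin4a*, a coat protein of muscle caveolae, at 8.27 CPM in the sibling and 1.55 in *btl*, and *tnc*, the matrix glycoprotein tenascin-C, at 110.8 and 30.2. The 3 highest members were *ilk* (0.51), *dysf*, the membrane repair protein dysferlin (0.35), and *thbs4a* (0.24).

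The notochord list was written with its low values in both mutants known. It had 16 of 31 genes lower (51.6%, beside 3.27% of all genes) and 0 higher, with a median of -1.21. Of the 16, 15 were at least 2-fold below all 3 normal libraries. Lists overlap, so their counts are not separate. The lower collagen chains here, among them *col2a1a*, *col5a3a*, *col11a2* and *col9a1b*, are counted again in the collagen list below. *col12a1a* and *col22a1* are in both the muscle anchoring and the collagen lists. *susd5* and *cmn* (calymmin) were at 31.8 and 222 CPM in the sibling and 5.38 and 41.0 in *btl*. *emilin3a*, a notochord sheath glycoprotein, had 12.4 CPM in *btl* and 58.2 in its sibling, beside 33.9 in WT, 28.8 in *stl*-sibling and 0.169 in *stl*. It was nearly at 0 in *stl* and reduced but well measured in *btl* (4.68-fold lower, 3.81- to 5.81-fold). *chrd*, the BMP antagonist chordin, was at 22.9 and 3.95 CPM. The 3 highest members were *slc38a8b* (0.83), *foxa3* (0.04) and *col9a1a* (0.02). *slc38a8b* was at 8.94 CPM in the sibling, 16.3 in *btl* and 0.253 in *stl*. Sheath products were low while the transcription factors *noto*, *tbxta* and *tbxtb*, which belong to the tail bud list, were high in the same pool. With the length trend removed *noto* was at 0.87. The transcription factors of the notochord list itself, *foxj1a* (-0.16), *foxa2* (-0.12), *twist2* (-0.02) and *foxa3*, stayed near the sibling.

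**Figure D5:**
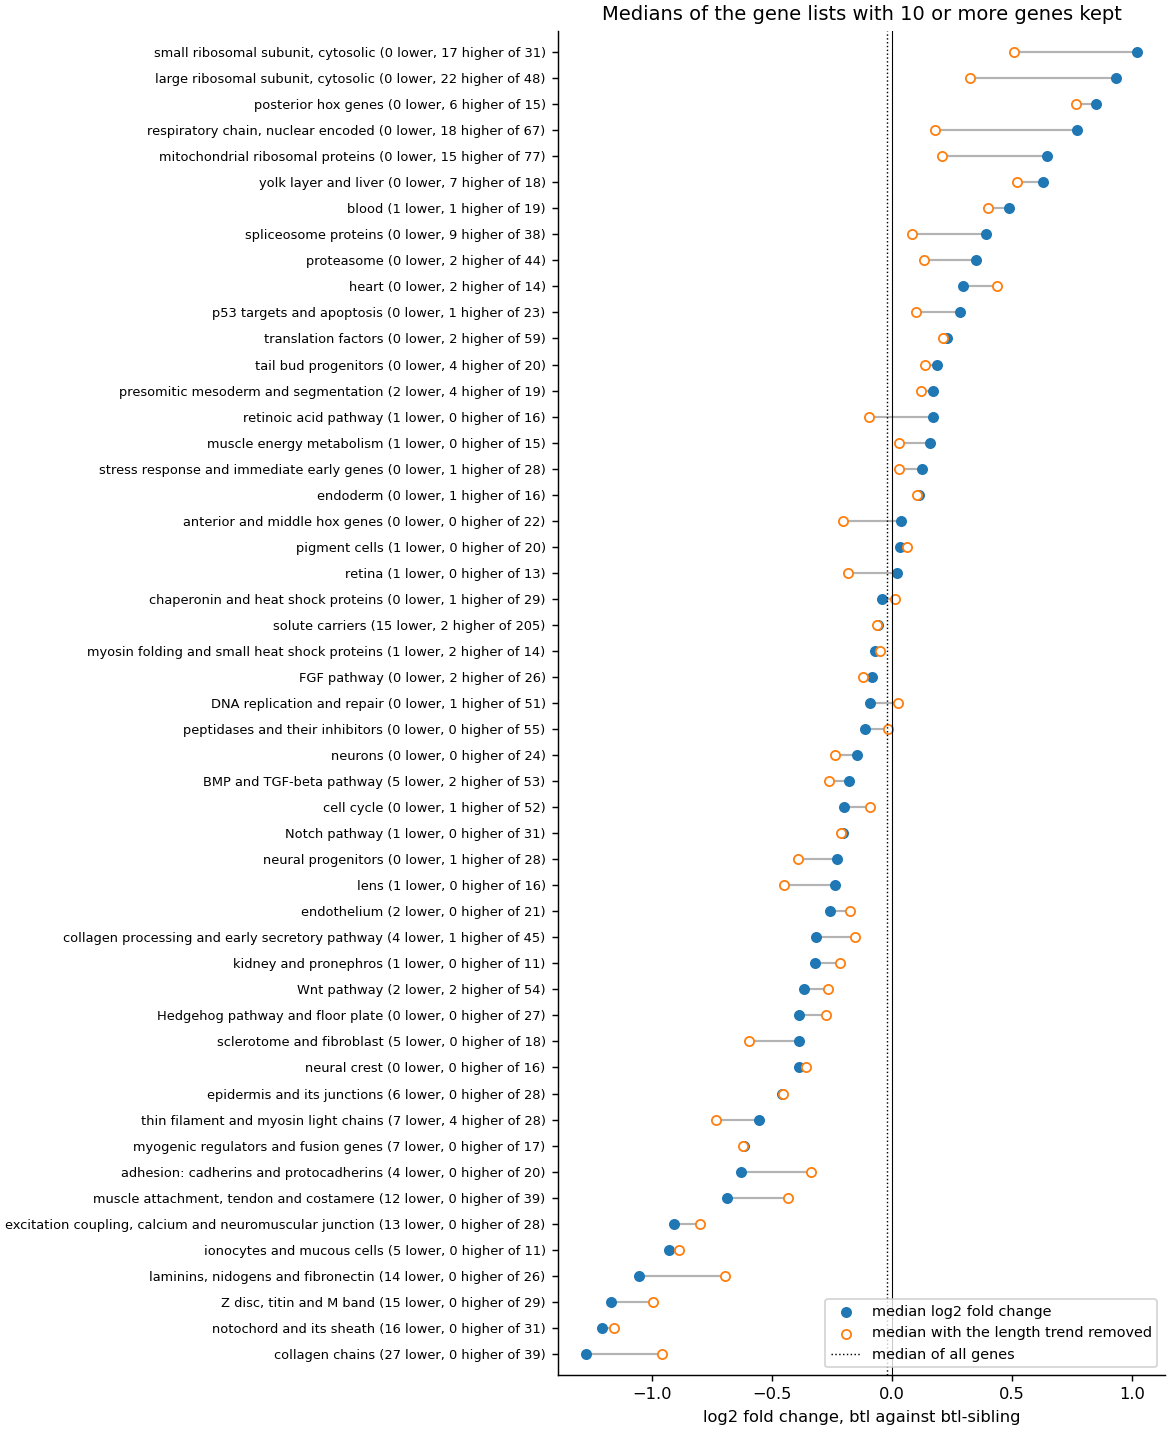
Median log2 fold change of *btl* against *btl*-sibling (x axis) of the gene lists with 10 or more genes kept, before (filled) and after (open) removal of the length trend, with the number of members at least 2-fold lower and higher. The dotted line is the median of all genes, -0.02. Collagens, notochord and muscle structure lie at the low end in both forms, while the ribosomal and respiratory lists move from between 0.64 and 1.02 to between 0.18 and 0.51.

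Before removal of the length trend, collagens had the lowest median among lists with 10 or more genes, and after it the notochord (-1.16) and Z disc (-0.996) lists lay lower. 27 of 39 chains were lower, 0 were higher, 38 lay below 0, and 22 were at least 2-fold below all 3 normal libraries. The median was -1.28 and, since collagens have long coding sequences (median 4869 nt), -0.96 with the length trend removed, when 18 of 39 were lower. Beside the notochord chains *col2a1a* and *col9a1b* (150.6 CPM in the sibling and 42.5 in *btl*), the fibrillar chains of skin and connective tissue were low. *col1a1a*, the main chain of type I collagen, had 75.2 CPM in *btl* and 214.8 in its sibling, beside 180.8 in WT, 348.9 in *stl*-sibling and 358.1 in *stl* (2.85-fold lower, 2.62- to 3.12-fold), and *col1a2* 134.2, 192.8, 203.3, 131.2 and 48.9. *stl* was as high as its sibling for both and *btl* was the lowest library. *col9a1a*, *col13a1* and *col17a1b* were within 0.13 of 0 on the log2 scale.

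The proteins that modify collagen chains moved less. In the collagen processing and early secretory list 4 of 45 were lower and 1 higher, with a median of -0.32 that became -0.16 without the length trend. The lower were *loxl1*, a cross-linking oxidase (14.5 CPM in the sibling and 4.07 in *btl*), *p4hb*, a subunit of prolyl 4-hydroxylase (477.6 and 205.5), *fkbp9* (230.3 and 106), a prolyl isomerase of the endoplasmic reticulum, and *p4ha1b*, the catalytic partner of *p4hb* (-1.09). *fkbp14*, another such isomerase, was the higher gene (7.74 and 18.8 CPM). Laminins, nidogens and fibronectin, the basement membrane, had 14 of 26 genes lower and 0 higher with a median of -1.05. These are among the longest genes (median 6158 nt), and 3 of the 26 remained lower with the length trend removed. Among them was *frem3*, at 171.9 CPM in the sibling and 52.4 in *btl*, with -1.32 after removal. Of the 14, 3 were at least 2-fold below all 3 normal libraries, and the median of the list against WT was -0.68.

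Among tissue lists, that of sclerotome and fibroblasts had 5 of 18 genes lower (27.8%, beside 3.27% of all genes) and 0 higher. All 5 were also at least 2-fold below all 3 normal libraries. The median was -0.39, and -0.60 with the length trend removed. The kidney, lens, retina and pigment cell lists each had 1 gene lower and 0 higher. The tissue lists described next showed 3 patterns. Part of the genes of surface cells were low. Of the epidermal and junction genes 6 of 28 were lower and 0 higher (median -0.46), while 9 lay above 0. With the length trend removed 4 were lower, and 2 of the 6 were at least 2-fold below all 3 normal libraries. The summed level of the list was 7568 CPM in *btl* against 12344 to 13673 in the normal libraries. *evpla* and *ppl*, the cornified envelope proteins envoplakin and periplakin, were at 689 and 1012 CPM in the sibling and 167.7 and 306.4 in *btl*, below every other library. Ionocyte and mucous genes were lower in 5 of 11 (45.5%, beside 3.27% of all genes) and higher in 0 (median -0.93). The lowest was *slc12a2*, a sodium-potassium-chloride cotransporter, at 35.9 and 11.1 CPM. None of these 5 passed against all 3 normal libraries, because WT and *stl*-sibling stood lower than *btl*-sibling (19.6 and 25.6 CPM for *slc12a2*). The gene LOC108246340, annotated as alpha-2-macroglobulin, a protease inhibitor, and chosen after its values were seen, had 1617 CPM in *btl* and 8117 in its sibling, beside 4872 in WT, 4634 in *stl*-sibling and 4461 in *stl*.

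Genes of yolk and liver were high. Of 18 genes 7 were at least 2-fold higher (38.9%, beside 4.33% of all genes) and 0 lower (median 0.63). With the length trend removed 4 were higher and 1 lower (median 0.52), with *afp4* at 0.58, *apoa2* at 0.46, *apoc2* at 0.25 and *fabp3* at -1.005. The list summed to 57360 CPM in *btl*, against 34335 in its sibling and 44366 in WT, while *stl* and *stl*-sibling were at 33071 and 33557 CPM. *afp4*, an apolipoprotein-like antifreeze family gene, was at 2703 CPM in the sibling and 7019 in *btl*, *apoea*, an apolipoprotein E, at 409.4 and 1043, and *apoba*, the very long apolipoprotein B gene, at 535.1 and 533.9. WT was the highest of the normal libraries for *afp4* (3847 CPM), and 2 of the 7, *fabp10a* and *apoea*, passed against all 3. The endoderm list had 1 of 16 higher, *fabp2*, the intestinal fatty acid-binding protein, with 5.81 CPM in WT, 5.50 in *stl*-sibling, 1.24 in *btl*-sibling and 9.80 in *btl*. Here the sibling was low, and against WT the log2 fold change was 0.71.

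Enzymes of tryptophan breakdown and of fructose and glyoxylate metabolism also lay above 0. These lists were added after the values were seen. In the breakdown of tryptophan to kynurenine, all 6 genes kept were above 0 and 3 were at least 2-fold higher. *tdo2a*, with 1, 0, 0, 0 and 0 reads, and *acmsd*, with 1, 3, 0, 0 and 1 reads, were below the filter. *haao*, the dioxygenase of 3-hydroxyanthranilate, had 124.3 CPM in *btl* and 38.9 in its sibling, beside 60.4 in WT, 35.6 in *stl*-sibling and 36.1 in *stl* (3.2-fold, 2.87- to 3.57-fold). *afmid*, the formamidase of the pathway, had 25.0 CPM in the sibling and 63.1 in *btl*, and *ido1*, which opens the indole ring, 3.96 and 8.73. *btl* was the highest library for each. Among enzymes of fructose and glyoxylate metabolism 4 of 10 were higher and 0 lower. They were *khk*, ketohexokinase (2.43 and 7.77 CPM), *hao1*, glycolate oxidase (1.71 and 5.26), *hoga1* (22.7 and 52.8) and *tkfc* (23.2 and 48.1). All 4 stayed at least 2-fold higher with the length trend removed, while 0 of the 10 passed against all 3 normal libraries, WT being closer to *btl* than the sibling was.

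Neural lists had few genes past 2-fold. Of 28 neural progenitor genes 1 was higher and 0 lower, while 21 lay below 0 (median -0.23, and -0.39 with the length trend removed). Their summed level in *btl*, 1573 CPM, was the lowest of the 5 libraries, beside 2068 in its sibling and 1830 in WT. Of 24 neuronal genes 0 passed in either direction (median -0.15, and -0.24 with the length trend removed). *sox3*, a marker of neural progenitors, was at 121.8 CPM in the sibling and 125.7 in *btl*, with a 95% interval of the log2 ratio from -0.07 to 0.16. The progenitor gene past 2-fold was *foxb1a*, a forkhead factor of the neural tube, with 30.6 CPM in *btl* and 13 in its sibling, beside 8.51 in WT, 12 in *stl*-sibling and 11.4 in *stl*. Neural crest genes had 0 of 16 past 2-fold, with 12 below 0 (median -0.39). Blood genes had 1 of 19 in each direction, *cahz* higher and *tfr1b* lower (median 0.49). The summed level of the blood list was 1245 CPM in *btl*, 954 in *btl*-sibling, 1251 in WT and 1191 in *stl*-sibling, so that the sibling was the library that stood apart. Endothelial genes had 2 of 21 lower (9.52%, beside 3.27% of all genes). These were *cdh5* and *flt1*, at 25.4 and 14.4 CPM in the sibling and 10.5 and 6.81 in *btl*. Neither was at least 2-fold below all 3 normal libraries, and *flt1* was at -0.75 with the length trend removed.

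Genes that every cell uses made up a part of the higher side. Of 79 cytosolic ribosomal protein genes 39 were at least 2-fold higher and 0 lower, with a median of 0.96, against 4.33% of all genes. The count depended on length. In the shortest decile of coding sequences, where 24.3% of all genes were higher, 33 of 56 ribosomal genes were (58.9%), and once the trend was removed 2 of the 79 remained at least 2-fold higher, with a median of 0.37. Those were *rplp0*, a stalk protein of the large subunit (1703 CPM in the sibling and 4572 in *btl*), and *rpl13a* (2206 and 5255). For *rplp0* the sibling lay below WT (2689) and *stl*-sibling (2570), and 9 of the 79 were at least 2-fold above all 3 normal libraries. Among the highest by fold were *rps21* (517.1 and 1703 CPM) and *rplp2* (268.3 and 861.8).

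Nuclear genes of the respiratory chain were higher in 18 of 67 (26.9%) and lower in 0, and mitochondrial ribosomal proteins in 15 of 77 (19.5%) with 0 lower. Of all genes 4.33% were higher, and of those in the shortest decile 24.3%. With the length trend removed the mitochondrial ribosomal median of 0.64 became 0.21, and 0 remained. The respiratory chain median of 0.77 became 0.18, and 2 of its genes remained. The 2 that remained were *ndufb8*, a subunit of complex I, with 239.3 CPM in *btl* and 73.0 in its sibling, beside 107.4 in WT, 84.4 in *stl*-sibling and 84.1 in *stl* (3.28-fold, 3.03- to 3.55-fold), and *atp5po*, a subunit of ATP synthase, with 278.8, 219.1, 214.4, 211.1 and 559.9 CPM. Both were highest in *btl* by more than the span of the other libraries. The partner subunits encoded by the mitochondrial genome had a median of -0.34 and 0 of 13 past 2-fold. With the length trend removed their median was -0.46, and 3 of the 13 were at least 2-fold lower. Since these genes lay outside the trend, the subtraction itself carried the 3 past 2-fold. Against all 3 normal libraries 0 of the 13 were at least 2-fold lower. The median against *stl*-sibling was -0.10, and the 13 summed to 20290 CPM in *btl* and 20234 in *stl*-sibling. Spliceosome genes were higher in 9 of 38 (23.7%) and lower in 0. They ranged from *snrpe* (1.43) down to *prpf8* (-0.61), a very long gene, and 0 remained past 2-fold without the trend.

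Growth and stress lists had few genes past the threshold. In the cell cycle list 1 of 52 was higher, *spc24* (26.7 and 55.6 CPM), and 0 were lower (median -0.20), and in the DNA replication list 1 of 51, *rpa3* (84.8 and 174.5), and 0 lower. Among p53 targets and apoptosis genes 1 of 23 was higher, *fas*, the death receptor (10.1 and 22.4), and among stress and immediate early genes 1 of 28, *mt2*, a metallothionein (54.9 and 115.2). These shares lie near or below the 4.33% of all genes.

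Signalling pathways were read by ligands, receptors and inhibitors. In the FGF list 2 of 26 genes were higher, *fgf10a* and *cnpy1*, a positive FGF regulator in zebrafish (35.5 CPM in the sibling and 81.1 in *btl*), and 0 lower, and the receptors lay below 0, *fgfr1b* the lowest at -0.97. In the BMP and TGF-beta list 5 of 53 were lower and 2 higher. The lower were the antagonists *chrd* and *fsta* (follistatin, 36.1 and 15.8 CPM), the receptors *bmpr1bb* (20.6 and 7.41) and *tgfbr3* (-1.12) and the ligand *bmp3* (-1.09). The higher were *szl*, the chordin-protecting inhibitor sizzled, on 23 and 45 reads, and *ved*. In the Wnt list 2 of 54 were lower, *sfrp2*, a secreted Wnt inhibitor (51.9 and 15.4 CPM), and *wnt9b* (3.81 and 1.55), and 2 were higher, *tbxta* and *szl*. The Notch list had 1 of 31 lower, *notch2* (116.9 and 49.5 CPM), which fell short of 2-fold without the length trend (-0.85). Hedgehog and floor plate genes had 0 of 27 past 2-fold, with *ptch1*, the receptor and a target of the pathway, at -0.85 and a median of -0.39. In the retinoic acid list 1 of 16 was lower, *rdh10a*, the dehydrogenase that makes retinal, with 9.08 CPM in *btl* and 32.1 in its sibling, beside 28.2 in WT, 27.9 in *stl*-sibling and 27.0 in *stl* (3.53-fold, 2.76- to 4.57-fold lower). The share lower was 9.43% in the BMP and TGF-beta list, 6.25% in the retinoic acid list, 3.70% in the Wnt list, 3.23% in the Notch list and 0 in the FGF and Hedgehog lists, beside 3.27% of all genes. Of the 5 lower BMP and TGF-beta genes 2, *chrd* and *bmpr1bb*, were at least 2-fold below all 3 normal libraries. *fsta* had a log2 fold change of -0.44 against WT.

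Cadherins, the adhesion molecules of cell junctions, were lower in 4 of 20 (20%, beside 3.27% of all genes) and higher in 0. Their median was -0.63, and -0.34 without the length trend. Beside *cdh15* and *cdh5* the 4 were *cdh27* (8.30 CPM in the sibling and 1.69 in *btl*) and *cdh13* (4.97 and 1.2), the latter on 64 and 10 reads. All but *cdh5* were at least 2-fold below all 3 normal libraries. Solute carriers had 15 of 205 lower (7.32%) and 2 higher (0.976%), beside 3.27% and 4.33% of all genes. Of the 15, 6 were at least 2-fold below all 3 normal libraries. With the length trend removed 10 were lower and 1 higher. The lowest was *slc16a10*, an aromatic amino acid transporter (7.07 and 1.55 CPM), and the highest *slc31a2*, a copper transporter (17.7 and 46.9 CPM).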

How the data were processed

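RNA-seq was made from 5 pools of whole embryos, 1 library a group. According to the study the pools were read in 1 lane of an Illumina sequencer with paired end reads of 100 nt. The labels and the study name different RNA and library kits, and the study gives the stage differently in its results, so stage and kit are uncertain. The authors trimmed the reads and quantified them by Salmon (version 1.5.0) on the annotated coding sequences (ASM164957v2), without scaling between libraries. The deposited values used here are the estimated counts of each coding sequence, and the TPM the authors deposited beside them served as an alternative. The deposited comparison tables hold fold changes and scores of the authors, which were not used. Their product names, at hand for 3906 genes, were used to name genes without a symbol.

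Estimated counts were summed unrounded over each gene through the protein accessions (37146 of 37181 coding sequences, 35 unassigned, at most 0.000785% of a library's counts). CPM were computed with TMM factors of edgeR 4.0.16 in R 4.3.3 over the 5 libraries. Fold changes are differences of log2(CPM + 0.5), which understates the change of low genes, and folds with intervals are ratios of CPM. A mean of 2 CPM or more was required of a gene. With 1 library per group no test across genes was possible, and no p-value is given. All else ran in Python 3.11.15 (numpy 2.4.6, pandas 2.3.3, scipy 1.17.1, matplotlib 3.10.9). Length is that of the longest coding sequence of a gene. The length trend was removed with the medians of 20 bins. Counting and trend removal were tried on simulated counts with counting error only, scaled by library size and with a length trend in *btl* alone. The normal libraries here also differ along length, so that trial does not show how well trend removal suits these data.

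The comparison, the 54 gene lists (and 3 added ones) and the rules were chosen with earlier results of these data known. Lists were matched by symbol alone. Named genes are the 15 lowest and 15 highest that passed 2-fold against all 3 normal libraries and without the length trend, the 3 lowest and 3 highest of each list, and genes the study used as probes. Other genes named were chosen after their values were seen. For 3 or fewer reads the fold is given with that library at 3 reads. 14 alternatives and 1 added later were tried, among them size factors of DESeq2 1.42.0.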

Additional observations from a re-analysis of the deposited data

Results flagged for a closer look

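*tbxta* and si:dkey-21p1.3, both named above, and *crybb1*, a member of the lens list, were at least 2-fold changed in *btl* against its sibling and at least 2-fold in the opposite direction in *stl* against its own sibling. *tbxta* had a log2 fold change of 1.49 in *btl* and -1.64 in *stl*. The collagen-annotated gene si:dkey-21p1.3 had 3.08 in *btl* and -1.37 in *stl*, on 235 and 5 reads in the mutants. *crybb1*, a beta crystallin of the lens, had -1.38 in *btl* and 1.69 in *stl*, with 2.99 CPM in *btl*, 38.8 in *stl* and 8.29 to 11.7 in the normal libraries. With 1 library a group the difference between the lines was not tested. Over all 15362 genes, 2 were higher in *btl* and lower in *stl* and 2 were lower in *btl* and higher in *stl*.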

How the results depend on the processing

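The number of lower genes was 503 and that of higher genes 665. These are out of 15362 genes. Library size alone gave 847 and 321, TPM 2127 and 64, and a 4-fold threshold 72 and 20 of the same genes. A mean of at least 10 CPM gave 292 and 429 of only 10604 genes. Single coding sequences gave 1816 and 1486 of 19202. Higher genes numbered 255 with the length trend removed, 277 against WT and 393 against the mean of the 3 normal libraries. Size factors of DESeq2, pseudocounts of 0.1 and 2, no filter, the filter on *btl* and *btl*-sibling alone and *stl*-sibling as reference kept both counts within 1.5 times. The rank correlation of fold change with length was -0.49, became -0.34 against WT and, by construction, -0.0011 with the trend removed, and was within 0.1 of the main value elsewhere. Of 153 single genes past 2-fold that were followed through the settings, 0 changed sign with library size, DESeq2 size factors or TPM. That count says little of stability. The genes were chosen past 2-fold, and the median of all genes shifted by -0.19 with library size and -0.53 with TPM. A change of sign was therefore hardly possible for these genes. Other filters left fewer of them, 104 at a mean of at least 10 CPM and 152 with the filter on *btl* and *btl*-sibling. Against WT, *hspa8b* turned to -0.28 and *hsp90aa1.2* to -0.32, and against *stl*-sibling *hspa8b* turned to -0.10. Against *stl*-sibling 126 of the 153 stayed past 2-fold, with TPM 107 and with the length trend removed 120. A filter on the 4 libraries other than *btl*, chosen after seeing the data, gave 515 lower and 634 higher genes. No paired analysis was possible because each group has 1 library. Leaving out a library would leave no comparison. Depth limits genes with few reads in *btl*, the shallowest library.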
